A study of Mus musculus with 68 samples.

Results

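The change from the E3.5 to the E4.25 mouse blastocyst was described here in RNA-seq libraries of whole pre-implantation embryos. The 25 libraries were chosen by their labels: all 10 labelled E4.25, and the 15 of the second of the deposited E3.5 tables, out of 68 samples in the series. The values of the 2 mHet libraries of E4.25 were the same for every gene, so they were counted as 1 sample, which left 24 distinct libraries. At E3.5 there were 5 wild-type (WT), 5 Ezhip mHet and 5 Ezhip mKO libraries, and at E4.25 there were 4 WT, 1 mHet and 4 mKO libraries. The series deleted Ezhip in mouse oocytes or embryos. The labels used here name no strain, sex, age of the mothers, Cre driver or treatment for these embryos, and do not say how many embryos a library holds. Libraries followed Smart-seq2, which primes on poly(A) tails. Nothing says that replicates came from separate litters, so p-values measure only the spread between these libraries, which may be technical.

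Over this interval the blastocyst matures from a fluid-filled ball of cells into an embryo ready to implant. The outer trophectoderm pumps fluid, attaches to the uterus and later builds the placenta. The inner cell mass separates into epiblast, which forms the body and is marked by Nanog, and primitive endoderm, which forms yolk sac and is marked in turn by Gata6, Sox17 and Gata4. FGF4 from the epiblast signals through FGF receptors and ERK to drive the endoderm fate, and the endoderm then lays down a basement membrane of laminins and type IV collagen. Naive pluripotency genes are turned down as the epiblast matures toward implantation. EZHIP is a protein that limits the methyltransferase PRC2, which places the repressive mark H3K27me3. In these bulk libraries, fewer cells of a type and less RNA per cell cannot be told apart.

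The values were FPKM (fragments scaled to gene length and library total), so the sequencing depth behind them is unknown. The 45S ribosomal precursor Rn45s held 9.19% to 69.5% of the summed FPKM at E3.5 and 11.7% to 68.6% at E4.25, and was removed before scaling. In WT the Rn45s share was 28.2% ± 13.2 (SD, n = 5) at E3.5 and 47.2% ± 21.5 (SD, n = 4) at E4.25 (exact permutation test, two-sided, p = 0.151), and genes at 1 FPKM or more numbered 7310 ± 609 and 6330 ± 595 (p = 0.0476). In mKO those genes numbered 6790 ± 1210 and 8146 ± 740 (exact permutation p = 0.0635), where the smallest p that 126 divisions allow is 0.00794. Y-linked transcripts were present in 8 of 15 E3.5 and 6 of 9 E4.25 libraries. Their presence does not give the sex of a library, since some also held much Xist, the RNA that silences an X chromosome in female cells. In WT 3 of E3.5, Y-linked transcripts summed to 10.1 FPKM before scaling and Xist was 83.9. The part these library measures played in the results was not tested, beyond the alternative fits with each as a term.

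The E4.25 library labelled WT 3 went against its label. The epiblast genes Nanog, Zfp42 and Dppa5a and the trophectoderm genes Cdx2 and Eomes were all at or near 0 in it, while Klf2 (29.0 scaled FPKM), Sox2 (10.2), Krt18 (48.4) and Krt8 (34.9) were present. Its 7 epiblast markers summed to 40.3, against 24.8 to 33.8 in WT 1, 2 and 4, with 2 of the 7 at 1 FPKM or more, against 4 to 6. Its 8 trophectoderm markers summed to 85.0, against 225.6 to 342.8, with 3 of the 8 at 1 FPKM or more, against 7 in each of the other WT libraries. Summed over the 20 named genes of a 23-gene list of uterine, oviduct, stromal, blood and cumulus markers, it held 656 scaled FPKM, against 0.233 to 1.72 at E3.5 and 0.446 to 10.5 in the other E4.25 libraries. The secreted protein Lcn2 (537), the oviduct protein Ovgp1 (39.7), complement C3 (36.0), globin Hba-a1 (21.4) and lactoferrin Ltf (14.4) made up most of that sum, and 8 markers reached 1 FPKM. Its correlation across genes with other E4.25 libraries was 0.42 to 0.531, while WT 4, the mHet and the 4 mKO libraries correlated at 0.835 to 0.928 among themselves. WT 1 and WT 2 correlated at 0.838 with each other and at 0.692 to 0.764 with those 6 libraries. Counts of called genes are therefore also given without WT 3, other than those of promoters and those under other scalings, tables or subsets of libraries. With the E3.5 libraries, mKO 4 correlated at 0.865 to 0.916, and with other E4.25 libraries at no more than 0.909. The highest correlation with an E3.5 library was 0.894, 0.903 and 0.827 for mKO 1 to 3, and 0.847 for mHet. For WT 1 to 4 it was 0.734, 0.727, 0.482 and 0.855.

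**Figure D1:**
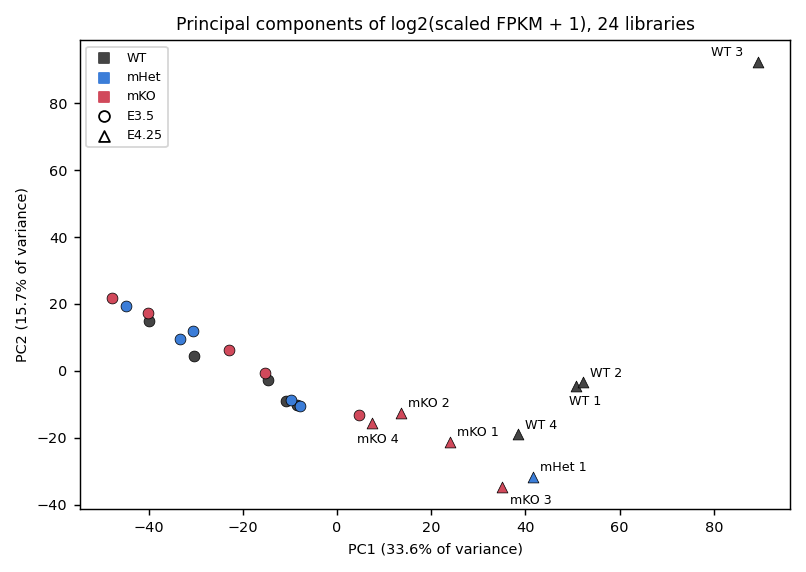
Principal components of log2(scaled FPKM + 1) over the 24 libraries, with component 1 (33.6% of the variance) on the x axis and component 2 (15.7%) on the y axis; each point is a library, coloured by genotype. E4.25 WT 3 stands alone at 92.4 on component 2, and WT 1 and WT 2 lie together, apart from WT 4, mHet and mKO.

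Genes named in both tables were put on a common scale by the median of their ratios over 7285 genes above 0 in every library. The difference between stages was then fitted with limma on log2(scaled FPKM + 1), with genotype as a term, over the 8849 genes that reached 1 scaled FPKM in at least 4 libraries. Log2 differences between stages, between tables and between genotypes are on that scale, which understates the change of low genes, and a value after ± is the standard error. Log2 ratios within a library use the same log2(scaled FPKM + 1). A gene was called as a large change where the Benjamini-Hochberg adjusted p was under 0.05 and the log2 difference was at least 2 in size, and as a 2-fold change where it was at least 1. Stage cannot be told apart from table, since the E3.5 and E4.25 tables were normalized separately. Their gene names differed too, with 24083 names at E3.5 and 19337 at E4.25. A measure of the size of such table differences came from the first E3.5 table, which holds 6 other E3.5 libraries, 2 of each genotype. Between the E3.5 tables, 4 genes (0.0448% of 8932) were called higher and 40 (0.448%) lower as large changes, and 245 (2.74%) and 237 (2.65%) as 2-fold changes, at the same stage. For a gene whose stage difference over all genotypes is given below, the difference between the E3.5 tables is set beside it wherever it was 0.5 or more in size. It is missing for Fos, Cmtm8, Hs3st1, Foxq1, Dkk1, Srgn, H19, Gata4, Sox17 and Lama1. Too few E3.5 libraries reached 1 scaled FPKM for these genes to be compared between the E3.5 tables. The stage difference from either E3.5 table uses the same E4.25 libraries.

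At E4.25, 22 genes (0.249%) were called higher and 114 (1.29%) lower as large changes, and the median over all genes was -0.03. The split between directions depended on the scaling, with 519 higher and 139 lower when libraries were scaled to their sum, and 28 and 57 with quantile normalization. Without WT 3 the counts were 32 (0.363%) and 98 (1.11%) of 8805 genes. Against the first E3.5 table, 32 genes (0.35%) were called higher and 161 (1.76%) lower. The E3.5 and E4.25 libraries did not overlap for 41 genes (0.463%) that lay above at E4.25 and 119 (1.34%) that lay below, or 63 (0.716%) and 140 (1.59%) without WT 3. Some of the lower genes named below, such as Pemt, Bhmt and Apoa1, are enzymes or secreted proteins better known from liver and kidney. Cytosolic ribosomal protein genes, 83 of the 8849 genes tested, made up 19 of the 114 genes called lower, and 14 of 98 without WT 3. As large changes, 5 of the 83 were lower in the first than in the second E3.5 table. From the first E3.5 table to E4.25, 2 of them were lower.

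Pemt, which makes phosphatidylcholine by methylating phosphatidylethanolamine, fell the most of the genes named by the rule. It ranged from 42.5 to 551 scaled FPKM at E3.5, with a median of 214. Its E4.25 values were 4.03, 1.75, 5.86 and 1.08 in WT 1 to 4, 3.60 in mHet, and 2.00, 5.05, 3.70 and 21.9 in mKO 1 to 4. The stages did not overlap, and mKO 4 was the highest E4.25 library. The log2 difference was -5.35 ± 0.40 (limma adjusted p = 1.4e-09), with -5.54 ± 0.45 in WT and -5.22 ± 0.54 in mKO. The first E3.5 table was itself lower than the second by 1.36 on the log2 scale, and E4.25 fell by 3.98 from it.

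Bhmt, which remethylates homocysteine from betaine, fell in the same way. Its E3.5 values ran from 14.5 through a median of 56.6 to 119, and its E4.25 values were 0, 0.899, 0 and 1.59 in WT, 0.851 in mHet and 1.99, 3.14, 4.88 and 13.1 in mKO. Every E4.25 library lay below every E3.5 library, and the 4 mKO libraries were the highest at E4.25. The difference was -4.31 ± 0.40 (limma adjusted p = 4.2e-08), with -0.01 between the E3.5 tables. Apoa1, the main protein of high-density lipoprotein, ran from 4.28 to 24.0 at E3.5 and reached at most 0.823 at E4.25, a difference of -3.20 ± 0.23 (-0.44 between the E3.5 tables). Gulo, the last enzyme of vitamin C synthesis in mice, went from 2.56 to 13.1 at E3.5 to at most 1.55 at E4.25, a difference of -2.64 ± 0.24.

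Timd2, a receptor that takes up ferritin, fell by 3.85 ± 0.37 on the log2 scale (-0.75 between the E3.5 tables). It ran from 34.3 to 240 scaled FPKM at E3.5 and from 0.107 to 20.8 at E4.25. The alkaline phosphatase Alppl2 fell by 3.94 ± 0.46 (-0.60 between the E3.5 tables), from a range of 4.27 to 147 to one of 0 to 3.61. Sycn, a protein of zymogen granules, fell by 3.58 ± 0.36, from 10.6 to 56.1 down to 0 to 10.1, and was listed at 0 in WT 1 to 3 (-0.53 between the E3.5 tables). Pramel5, a member of a family of leucine-rich repeat proteins expressed in early embryos and germ cells, ran from 23.3 to 43.0 at E3.5. Its later values were 0, 0.0715, 0.0505 and 3.59 in WT, 8.93 in mHet and 11.6, 7.35, 10.4 and 22.4 in mKO. All 9 E4.25 libraries were below E3.5 for Pramel5, and the mKO and WT libraries did not overlap at E4.25. The share of all genes whose mKO and WT libraries lay apart at E4.25 was not counted. Its difference was -4.31 ± 0.44 in WT and -1.42 ± 0.31 in mKO, and these differed by 2.90 ± 0.55 (limma adjusted p = 0.012).

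Promoters of Pemt, Sycn and Pramel5, which fell, are shown for their matches to AGATAA or TGATAA, the letters that GATA factors bind. They were picked for holding a match. Whether a GATA factor acts on these genes was not tested. The sequences come from RefSeq promoters of build GRCm38.p6 (250 bases before the start to 50 after), read on the gene's strand, with the match in capitals (TTATCT is AGATAA on the other strand).
Pemt, chr11:60040396-60040425, minus strand: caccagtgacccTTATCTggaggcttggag
Pemt, chr11:60040374-60040403, minus strand: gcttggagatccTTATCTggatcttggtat
Sycn, chr7:28540637-28540666, plus strand: acactctgagccTTATCTccaacccctaga
Sycn, chr7:28540829-28540858, plus strand: cctcccttgtctTTATCTcatatattctct
Pramel5, chr4:144280582-144280611, minus strand: atggattccagaAGATAAggacagggagtt
Counted from the start of the gene, the matches lie at -225 and -203 for Pemt, -236 and -44 for Sycn and -133 for Pramel5. A match to AGATAA or TGATAA on either strand was present in 20 of 79 promoters of genes called lower (25.3%), 3 of 18 of genes called higher (16.7%) and 618 of 6594 of all genes tested (9.37%). Among genes tested, none of the 6 endoderm regulators, 12 basement membrane genes and 11 trophoblast transcription factors with a promoter sequence held one. Hnf4a, a listed endoderm regulator that was not among the genes tested, held one at -52. Promoters were matched by symbol, and these shares carry no test.

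**Figure D2:**
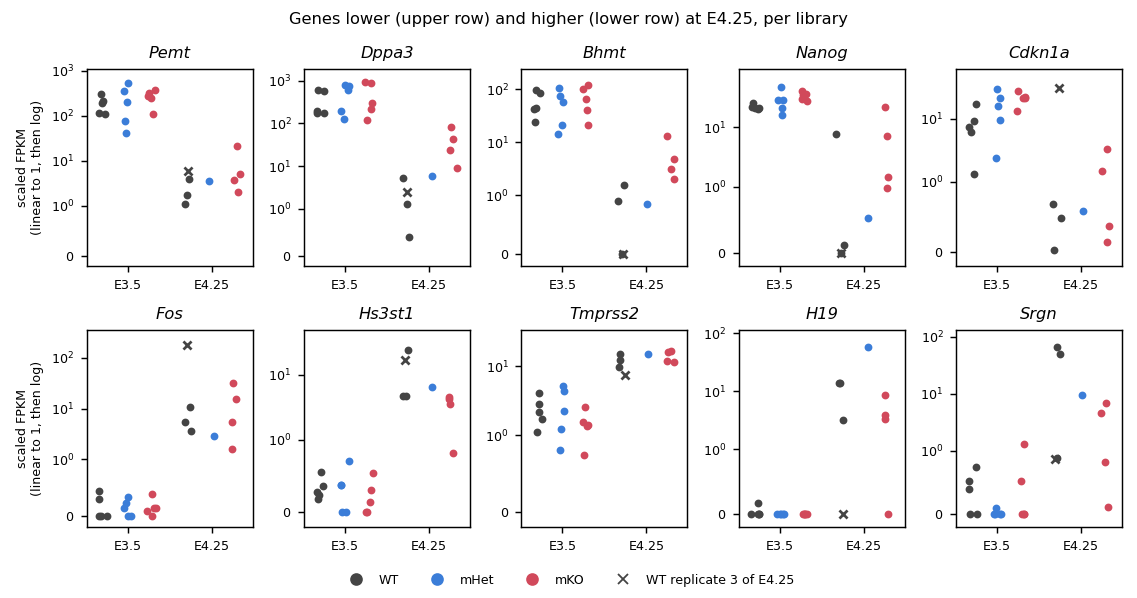
Scaled FPKM per library (y axis, linear to 1 and logarithmic above) at E3.5 and E4.25 for 5 genes lower and 5 higher at E4.25; points are libraries coloured by genotype, and the cross is E4.25 WT 3. Pemt stays at or below 21.9 at E4.25 and at or above 42.5 at E3.5, while WT 3 is the outlying point for Cdkn1a and Fos.

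Naive pluripotency genes went in both directions. Of 18 measured members of the core pluripotency list, 6 were called lower and 3 higher as 2-fold changes, where all genes gave 8.55% lower and 3.22% higher. The list's median was -0.59, beside -0.03 for all genes. Without WT 3, 5 were lower and 3 higher (8.14% and 3.28% of all genes). The list's median was -0.33 with quantile normalization and 0.03 with scaling to the sum, which moves the median of all genes to 0.51.

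Dppa3, which protects DNA methylation in the zygote and marks naive cells, fell most in this list. It ran from 122 through a median of 305 to 940 at E3.5. The E4.25 libraries gave 1.28, 0.399, 2.54 and 5.40 in WT, 6.01 in mHet and 24.1, 44.5, 9.24 and 81.9 in mKO. The stages did not overlap, and each mKO library was above each WT library at E4.25. The difference was -5.22 ± 0.52 (limma adjusted p = 1.3e-07), with -0.23 between the E3.5 tables. It was -6.66 ± 0.55 in WT and -3.56 ± 0.70 in mKO, and the test between these gave 3.09 ± 0.95 with an adjusted p of 0.1.

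Nanog, the transcription factor that holds the epiblast state, ran from 16.4 to 48.0 at E3.5 with a median of 27.4. At E4.25 it was 0.111, 0, 0.00279 and 7.79 in WT, 0.523 in mHet and 0.983, 1.44, 7.22 and 22.4 in mKO. Only mKO 4 reached into the E3.5 range. The difference was -3.34 ± 0.39 (limma adjusted p = 9.8e-07), and -0.98 between the E3.5 tables. Pou5f1 (Oct4), which is needed for the inner cell mass, had a 2-fold call, with a difference of -1.96 ± 0.37. The first E3.5 table was higher than the second for it by 0.98, and E4.25 fell by 3.17 from the first table. Pou5f1 was 0.245, 1.83, 0.150 and 1.80 in WT, 1.55 in mHet and 4.57, 12.0, 5.04 and 13.2 in mKO at E4.25, against 4.55 to 34.3 at E3.5. Dppa5a, an RNA-binding protein of pluripotent cells, was called at -2.40 ± 0.78, but it was at 0 in WT 3, and without that library the difference was -1.54 ± 0.48.

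Other members had the opposite sign. The Krüppel-like factors Klf2 and Klf4, which sustain naive pluripotency, rose by the 2-fold rule by 1.10 ± 0.19 (-0.51 between the E3.5 tables for Klf2) and 1.31 ± 0.21, and the ligand Bmp4 by 1.85 ± 0.32. Klf4 ran from 1.23 to 5.92 at E3.5 and from 5.63 to 14.8 at E4.25, so that the stages nearly separated. Klf2, Klf4 and Bmp4 are named here after their values were seen. Sox2, which pairs with Oct4, differed by -0.16 ± 0.25 (limma adjusted p = 0.65), with 2.32 to 8.92 scaled FPKM at E3.5 and 2.62 to 13.4 at E4.25. The first E3.5 table was lower than the second by 1.09, and E4.25 stood above the first by 0.76, so the sign for Sox2 depended on the table. Within libraries, the log2 ratio of Sox2 to Nanog was higher at E4.25 by 3.62 in WT and 2.50 in mKO (exact permutation tests, adjusted p = 0.0254 and 0.0381 over 16 tests of ratios), or by 5.82 and 2.84 with a pseudocount of 0.1. Without WT 3 the rise in WT was 3.07 (exact permutation adjusted p = 0.0381).

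Of 7 measured genes of the later, post-implantation epiblast, from 19 listed, 2 were called higher by the 2-fold rule (3.22% of all genes) and none lower. The median was 0.76 and 6 of the 7 differences were positive. Without WT 3, 4 were higher (3.28% of all genes) and 0 lower. Dnmt3b, a DNA methyltransferase that rises toward implantation, was 35.6, 32.0, 0.105 and 28.4 in WT, 20.2 in mHet and 15.8, 14.7, 12.7 and 5.86 in mKO, against 1.79 to 7.73 at E3.5. Apart from WT 3, only mKO 4 lay within the E3.5 range. Its difference was 1.78 ± 0.41, and 2.29 ± 0.20 without WT 3 (limma adjusted p = 3.2e-08), where it became a large change.

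Among primitive endoderm regulators the later factors Sox17 and Gata4 rose, and the earliest, Gata6, did not pass. Of 13 measured, 6 were called higher by the 2-fold rule, among them Gata4, Sox17, Foxq1 and Dkk1, and 1 lower (Cited1), with a median of 0.99, where all genes gave 3.22% and 8.55%. Without WT 3 the counts were also 6 and 1. Gata6, the earliest endoderm factor, differed by -0.41 ± 0.22 (limma adjusted p = 0.15). The first E3.5 table was lower than the second by 0.88 for Gata6, and E4.25 stood above the first by 0.34, so its sign depended on the table. It ran from 14.7 to 38.8 at E3.5 and, apart from 4.04 in WT 3, from 15.6 to 38.2 at E4.25. Gata4, a later GATA factor of the endoderm, was at most 0.107 at E3.5. At E4.25 it was 3.29, 3.17, 0 and 0.869 in WT, 2.51 in mHet and 0.768, 2.06, 1.57 and 0.0358 in mKO. Every E4.25 library other than WT 3 and mKO 4 lay above E3.5, and the difference was 1.18 ± 0.21 (adjusted p = 0.00015), or 1.38 ± 0.18 without WT 3.

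Sox17, an HMG-box factor of the endoderm, rose by the 2-fold rule by 1.41 ± 0.23. At E3.5 it reached 0.822, and at E4.25 it was 3.56, 1.89, 5.97 and 0.485 in WT, 3.70 in mHet and 2.23, 3.12, 0.862 and 0.135 in mKO. Within libraries, the log2 ratio of Gata4 to Gata6 was -4.43 ± 0.33 (SD, n = 5) at E3.5 and -2.48 ± 0.52 (SD, n = 4) at E4.25 in WT, a rise of 1.96 (exact permutation test, adjusted p = 0.0254). In mKO it rose by 1.13 (exact permutation adjusted p = 0.0381). The ratio of Sox17 to Gata6 rose by 2.31 in WT and 1.27 in mKO (exact permutation adjusted p = 0.0254 and 0.0381), and that of Gata6 to Nanog by 2.98 and 2.44 (0.0254 and 0.0363). Without WT 3 the WT rises of these ratios were 1.91, 1.50 and 3.18, each with an exact permutation adjusted p of 0.0381. Gata4 and Sox17 were so low at E3.5 that the pseudocount of 1 bears on these sizes: with 0.1 the rises were 3.89 in WT and 2.86 in mKO for Gata4 to Gata6, 4.31 and 2.74 for Sox17 to Gata6, and 5.15 and 2.83 for Gata6 to Nanog.

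Foxq1, a forkhead factor, was listed at no more than 0.228 at E3.5 and at 21.6, 12.0, 8.55 and 1.90 in WT, 3.00 in mHet and 1.22, 1.60, 4.56 and 0.152 in mKO. It was a large change at 2.2 ± 0.31 (limma adjusted p = 9.4e-06), and all E4.25 libraries but mKO 4 lay above E3.5. Dkk1, a secreted inhibitor of Wnt signalling, rose by 1.84 ± 0.41, or 2.17 ± 0.36 without WT 3, where it was listed at 0. Cited1, a transcriptional co-regulator, fell by 2.42 ± 0.49, from 0 to 30.2 at E3.5 to at most 0.572 at E4.25. Pdgfra, the PDGF receptor that marks the endoderm lineage, was 2.48, 3.08, 0.00342 and 0.823 in WT and 0.644 to 1.56 in mKO. At E3.5 it was 0.320 to 1.29, so the difference of 0.44 ± 0.18 did not pass (adjusted p = 0.062).

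Basement membrane genes, a product of the endoderm, rose or did not pass. Of 17 measured, 7 were called higher by the 2-fold rule (3.22% of all genes) and 0 lower, with a median of 0.80, and 8 were higher without WT 3 (3.28%). The median was 0.79 with no scaling, 0.72 with quantile normalization and 1.89 with scaling to the sum. The laminin chains Lama1, Lamb1 and Lamc1, which join into laminin-111, rose by 1.69 ± 0.28, 1.07 ± 0.29 and 1.14 ± 0.21. Lama1 reached at most 1.62 at E3.5 and was 7.04, 7.91, 0.0359 and 2.58 in WT, 5.82 in mHet and 2.79, 4.29, 3.46 and 1.17 in mKO. Apart from WT 3 and mKO 4, each E4.25 library lay above E3.5 for Lama1. The collagen chain Col4a2 rose by 1.06 ± 0.23. Sparc, a collagen-binding protein of the matrix, rose by 1.52 ± 0.43 and was 51.6 and 48.2 in WT 1 and WT 2 but 3.28 and 3.49 in WT 3 and WT 4, with 5.92 to 34.2 in mKO and 0.833 to 12.9 at E3.5. Lama1, Lamc1 and Col4a2 are named here after their values were seen. Within libraries, the ratio of Col4a1 to Lamc1 fell by 0.91 on the log2 scale in mKO (exact permutation adjusted p = 0.0254), while the difference in WT was 0.18 (0.603).

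Genes for uptake and secretion by the endoderm split evenly, with 3 of 14 called higher and 3 lower by the 2-fold rule, with and without WT 3 (3.22% and 8.55% of all genes with it). Srgn, a proteoglycan core protein of secretory granules, was a large change at 2.33 ± 0.52. It was 65.8 and 50.0 in WT 1 and WT 2, and 0.877 and 0.891 in WT 3 and WT 4, so WT 3 and WT 4 lay within the E3.5 range of 0 to 1.30. Npl, an enzyme that cleaves sialic acid, fell by 2.00 ± 0.25 (0.66 between the E3.5 tables), from 12.6 to 28.5 at E3.5 to 1.13 to 12.4 at E4.25. Lrp2, the endocytic receptor megalin, and Apoa1 were the other lower members.

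**Figure D3:**
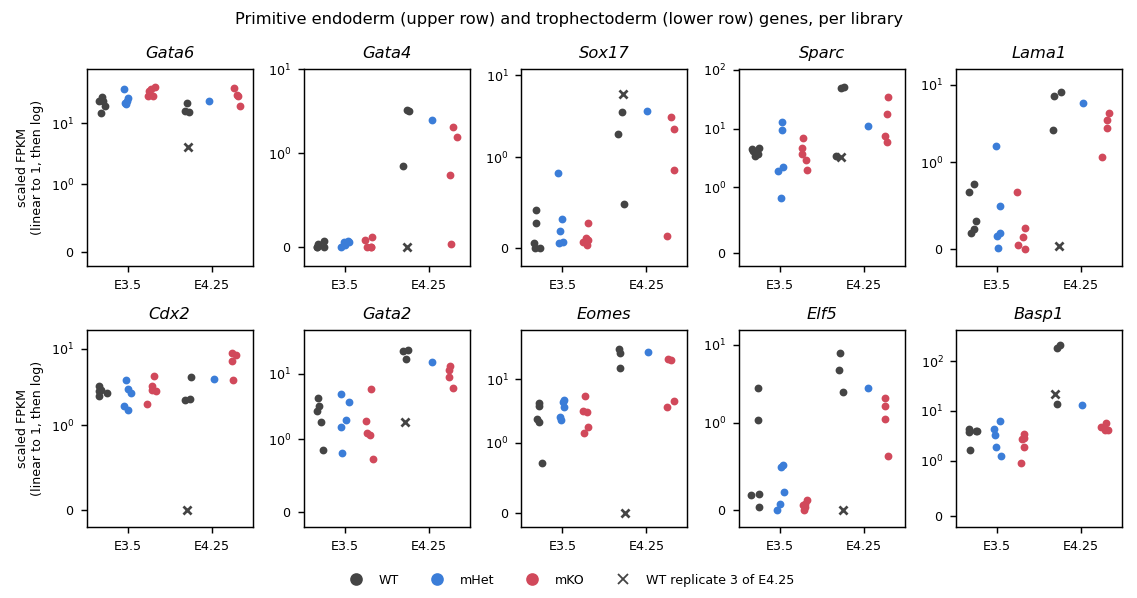
Scaled FPKM per library (y axis, linear to 1 and logarithmic above) for primitive endoderm genes (Gata6, Gata4, Sox17, Sparc, Lama1) and trophectoderm genes (Cdx2, Gata2, Eomes, Elf5, Basp1) at E3.5 and E4.25; points are libraries and the cross is E4.25 WT 3. Apart from WT 3 at 4.04, Gata6 lies in the same range at both stages, Gata4 is at most 0.107 at E3.5, and WT 3 is at 0 for Cdx2, Eomes and Elf5.

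Of 15 trophoblast transcription factors measured, 6 rose by the 2-fold rule (Gata2, Eomes, Elf5, Ets2, Klf6 and Grhl1) and 0 fell, with a median of 0.43, where all genes gave 3.22% and 8.55%. The same 6 rose without WT 3. Gata2, a GATA factor of trophoblast giant cells, was 23.3, 22.2, 1.84 and 16.8 in WT, 15.3 in mHet and 13.2, 8.92, 11.6 and 6.01 in mKO, against 0.733 to 5.84 at E3.5. All E4.25 libraries but WT 3 lay above E3.5. The difference was 1.99 ± 0.32, and 2.29 ± 0.26 without WT 3 (limma adjusted p = 6e-07), which made it a large change. Eomes, a T-box factor of polar trophectoderm, rose by 1.75 ± 0.44, or by 2.21 ± 0.31 without WT 3, where it was at 0. Elf5, a factor of trophoblast stem cells, rose by 1.22 ± 0.27 and reached 7.70 in WT 1. Gata2, Eomes and Elf5 are named after their values were seen.

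The earlier trophectoderm factors did not pass either rule. Cdx2, which sets up the lineage, was 1.58 to 4.42 at E3.5 and 2.13, 2.17, 0 and 4.28 in WT, 4.09 in mHet and 8.22, 3.96, 8.86 and 6.98 in mKO. Its difference was 0.28 ± 0.25 (limma adjusted p = 0.4), and the first E3.5 table was higher than the second by 0.62, with E4.25 below the first (-0.29). Gata3, its partner, differed by -0.56 ± 0.40 (adjusted p = 0.28), with 27.6 to 81.6 at E3.5 and 20.3 to 72.9 at E4.25 apart from 1.70 in WT 3. Krt8, a keratin of the outer epithelium, differed by -0.69 ± 0.31 (adjusted p = 0.087), with 0.65 between the E3.5 tables. Of 23 genes of the epithelium list, 4 rose by the 2-fold rule, among them the keratins Krt7 and Krt19, and 0 fell, with a median of 0.15, and without WT 3 again 4 and 0 (3.28% and 8.14% of all genes). Of 11 attachment genes, 2 rose (the growth factor Hbegf and the secreted ligand Spp1), and without WT 3 only Spp1 did.

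Among 7 measured genes of mural trophectoderm and giant cells, 4 rose by the 2-fold rule (Plac1, Ndrg1, Basp1 and Cited2) and 0 fell, with a median of 1.15, where 3.22% of all genes rose. The same 4 rose without WT 3. Basp1, a membrane-associated protein, was 185, 213, 21.4 and 13.8 in WT, 13.0 in mHet and 4.82, 5.73, 4.09 and 4.18 in mKO, against 0.961 to 6.18 at E3.5. WT 1 and WT 2 were the highest by far, and the E4.25 mKO libraries, at 4.09 to 5.73, lay above the E3.5 mKO libraries (0.961 to 3.40) and below the other E4.25 libraries. The difference was 2.21 ± 0.44 (-0.70 between the E3.5 tables), with 3.78 ± 0.74 in WT and 0.80 ± 0.25 in mKO. The test between these gave -2.98 ± 0.83 with an adjusted p of 0.074, and -3.47 ± 0.80 with 0.029 without WT 3. Cited2, a co-activator needed for the placenta, rose by 1.94 ± 0.36 and was 42.8 and 28.5 in WT 1 and WT 2 but 0.520 to 6.45 in mKO. Ndrg1, a hypoxia-inducible gene, rose by 1.15 ± 0.41, but the first E3.5 table was itself higher than the second by 1.07, and E4.25 differed from it by 0.09.

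Of 6 measured genes of polar trophectoderm, 2 fell (Ly6a and Gsto1) and none rose by the 2-fold rule, where all genes gave 8.55% and 3.22%. The list's median was -0.13 and 3 of the 6 differences were positive. The same 2 of 5 fell without WT 3. Wnt7b, a Wnt ligand, differed by 0.75 ± 0.16 (limma adjusted p = 0.00079), but the first E3.5 table was higher than the second for it by 0.78. Ly6a (Sca-1), a surface protein, was a large change at -3.38 ± 0.47 (-0.83 between the E3.5 tables), with a median of 77.3 at E3.5. It was 6.27, 10.8, 3.13 and 2.02 in WT, 1.33 in mHet and 2.94, 23.2, 8.76 and 57.6 in mKO at E4.25. Only mKO 2 and mKO 4 reached above the lowest E3.5 library (16.9). Gsto1, a glutathione transferase, fell by 1.84 ± 0.26 without overlap of the stages, from 198 to 655 down to 38.6 to 182.

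The highest of the genes that rose without overlap was Fos, an immediate-early transcription factor induced by ERK. It was at most 0.438 at E3.5 and was 5.45, 10.8, 179 and 3.57 in WT, 2.87 in mHet and 15.3, 31.7, 1.57 and 5.38 in mKO. All 9 E4.25 libraries lay above E3.5, and WT 3 was the highest. The difference was 3.18 ± 0.46 (limma adjusted p = 1.4e-05), and 2.74 ± 0.30 without WT 3. Of the 8 measured FGF and ERK targets, Fos and Dusp6, a phosphatase that shuts off ERK, rose by the 2-fold rule, and none fell, and 3 rose without WT 3 (3.22% and 3.28% of all genes). Dusp6 was 47.9 and 29.8 in WT 1 and WT 2 and 1.91 to 12.0 in the other E4.25 libraries, a difference of 1.44 ± 0.35. Fgf4, the ligand, was 0.240 to 1.75 at E3.5 and 0 to 3.76 at E4.25, and its difference of 0.51 ± 0.22 did not pass (adjusted p = 0.07). Of 12 Nodal, BMP and Wnt genes, 2 rose by the 2-fold rule (Id1 and Axin2), and 0 of 11 did so without WT 3.

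Tmprss2, a serine protease of the cell surface, rose by 2.24 ± 0.22 and had the smallest standard error of these genes. It ran from 0.741 to 5.10 at E3.5 and was 9.57, 15.3, 7.38 and 12.3 in WT, 15.2 in mHet and 16.8, 11.5, 16.1 and 12.0 in mKO. The stages did not overlap, and the first E3.5 table was higher than the second by 0.59. Hs3st1, which adds sulphate to heparan chains, rose by 2.43 ± 0.26, from at most 0.712 to between 0.824 and 24.2. Cmtm8, a membrane protein linked to EGF receptor turnover, rose by 2.63 ± 0.37, from at most 0.920 to between 0.928 and 82.7. Cd82, a tetraspanin, rose by 2.04 ± 0.34 (0.66 between the E3.5 tables), but was 64.8 in WT 3 and 2.78 to 7.73 elsewhere at E4.25, and its difference was 1.71 ± 0.22 without WT 3, under the size for a large change.

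Imprinted genes of the H19 and Igf2 domain rose together by the 2-fold rule, as 2 of the 13 imprinted genes measured, while 2 others fell. Without WT 3, 3 of 12 rose and 2 fell (3.28% and 8.14% of all genes). H19, an RNA made from the maternal allele, was listed at 0 in most E3.5 libraries and reached 0.176. It was later 13.7, 3.23, 0 and 13.8 in WT, 56.5 in mHet and 3.97, 8.63, 3.32 and 0 in mKO. It was at 0 in WT 3 and mKO 4 and above E3.5 in the other 7 libraries, with a difference of 2.75 ± 0.44 (limma adjusted p = 4.7e-05). Igf2, the growth factor beside it, rose by 1.36 ± 0.29, from at most 1.53 to as high as 8.47 (named after its values were seen). Xist, which silences an X chromosome in female cells, and Impact were the lower members. Xist differed by -1.92 ± 0.75, while the first E3.5 table was lower than the second by 3.56 and the E4.25 libraries were above the first table by 1.75, so its sign depended on the table. In the first table the WT and mHet libraries all held Y-linked transcripts, with Xist at 0.331 to 3.76 FPKM before scaling. Its mKO libraries lacked Y-linked transcripts, with Xist at 97.8 and 36.7. The part of embryo sex in the difference between tables was not tested.

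Genes that respond to p53 and stress had 4 of 14 members lower and 0 higher by the 2-fold rule, with a median of -0.55, where 8.55% of all genes were lower. The same 4 were lower without WT 3. Cdkn1a, the cyclin-dependent kinase inhibitor p21, ran from 1.32 to 29.4 at E3.5. Later it was 0.023, 0.482, 30.8 and 0.689 in WT, 0.587 in mHet and 3.27, 0.373, 0.134 and 1.49 in mKO. WT 3 was above every E3.5 library, and 6 of the other 8 were below them all. The difference was -2.49 ± 0.51 (limma adjusted p = 0.00059), and -3.04 ± 0.36 without WT 3, with -0.92 between the E3.5 tables. The p53 targets Ccng1, a cyclin, and Bax, which opens mitochondria in cell death, fell by the 2-fold rule by 1.63 ± 0.23 and 1.13 ± 0.28 (0.53 between the E3.5 tables for Bax), and Phlda3, an inhibitor of Akt named after its values were seen, by 1.39 ± 0.31.

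Of 18 lysosomal genes, 4 fell by the 2-fold rule and 0 rose (3 and 0 without WT 3; 8.55% and 8.14% of all genes fell), among them Cd63, a tetraspanin of late endosomes, at -2.17 ± 0.36, or -1.82 ± 0.26 without WT 3. Of 23 cell cycle genes, only Cdc20, an activator of the anaphase-promoting complex, fell (-1.54 ± 0.28), with and without WT 3, a smaller share than the 8.55% of all genes, and the first E3.5 table was higher than the second for Cdc20 by 0.70. Of 6 measured genes of the oocyte store, Ooep, of the subcortical maternal complex, fell by 1.49 ± 0.42 (-0.62 between the E3.5 tables), as it did without WT 3, and was 2.72, 1.49, 0.0122 and 15.1 in WT. The only measured member of the two-cell list, Tdpoz2, did not pass, with a difference of -0.47. Scaling to the sum gave 3 of 18 genes higher and 1 lower for the lysosome, and 4 of 24 and 1 for the cell cycle. It gave 2 of 6 and 2 for polar trophectoderm, and 9 of 17 and 1 for the trophoblast factors. Under that scaling 3162 of all 13539 genes were higher and 532 lower by the same rule. None of the 23 markers of maternal tissues was expressed widely enough to be tested.

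Ribosomal protein genes fell, and many of them differed between the E3.5 tables too. Of 83 cytosolic ribosomal protein genes, a list drawn up by name after values were seen, 63 were lower by the 2-fold rule and 0 higher, with a median of -1.50, and 57 were lower without WT 3 (8.55% and 8.14% of all genes). At the same stage, 25 of 83 were lower in the first than in the second E3.5 table, with a median of -0.64. With quantile normalization 17 were lower with a median of -0.45, and with scaling to the sum 33 with a median of -0.83, so the sign held and the number of calls did not. Rps29, a protein of the small subunit, ran from 1166 to 6256 at E3.5 and from 137 to 821 at E4.25. Its difference of -2.60 ± 0.31 stood beside -2.14 between the E3.5 tables and -0.63 from the first table to E4.25. For Snrpg, a core spliceosome protein, these values were -2.69 ± 0.30, -1.73 and -1.09, whereas Mrpl36, of the mitochondrial ribosome, gave -2.56 ± 0.32, -0.66 and -1.94.

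Of 28 respiratory chain genes, 7 fell by the 2-fold rule and 0 rose, with a median of -0.64, and 6 fell without WT 3 (8.55% and 8.14% of all genes). The median was -0.13 with quantile normalization and 0.01 with scaling to the sum. Relative to the median of all genes under the same scaling it was -0.60 in the fit given here, -0.06 with quantile normalization and -0.50 with scaling to the sum. The list's median was 0.47 between the E3.5 tables, and in E4.25 against the first of them 12 genes fell and 0 rose, with a median of -0.88. Ndufa4, a subunit tied to cytochrome oxidase, ran from 45.9 to 355 at E3.5 and from 21.6 to 108 at E4.25, a difference of -2.22 ± 0.34, with -0.55 between the E3.5 tables. In mKO alone 0 of the 28 genes passed the 2-fold rule, with a median of -0.13 (limma). There, 313 of all 8849 genes were called higher and 388 lower by that rule. Of 14 glycolysis genes, 4 rose (Pfkl, Tpi1, Ldha and Slc2a1) and 1 fell, and without WT 3 these were 4 and 2 (3.28% and 8.14% of all genes). The gene that fell with all libraries was Gapdh, a glycolytic enzyme often used as a reference gene, which differed by -1.94 ± 0.27, while the first E3.5 table was lower than the second by 3.07 and E4.25 stood above the first by 0.99. Tmsb4x, an actin-binding peptide named after its values were seen, differed by 2.99 ± 0.64, with 1.66 between the E3.5 tables.

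**Figure D4:**
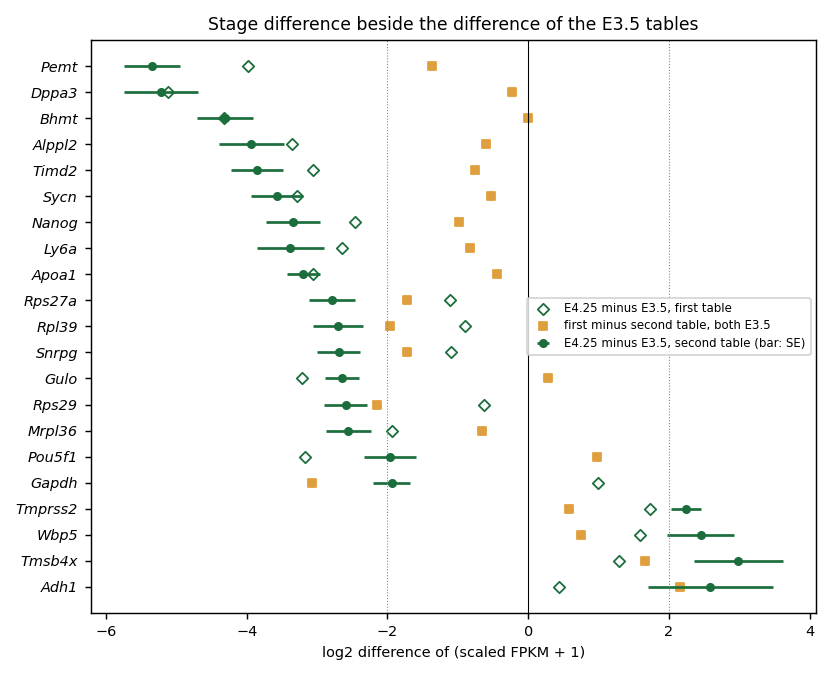
Log2 difference of (scaled FPKM + 1), on the x axis, for the genes on the y axis: filled circles with SE bars are E4.25 minus the second E3.5 table, open diamonds E4.25 minus the first E3.5 table, and squares the first minus the second E3.5 table. Bhmt and Dppa3 show squares at -0.01 and -0.23, while for Rps29 and Gapdh the squares lie at -2.14 and -3.07.

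Fitted alone, WT embryos had 65 genes (0.735%) called higher and 240 (2.71%) lower as large changes, and mKO embryos 31 (0.35%) and 58 (0.655%). Without WT 3 these were 96 and 222 in WT and 31 and 61 in mKO. Scaled to the sum these splits were 428 and 211 in WT and 632 and 60 in mKO, with no scaling 29 and 423 in WT and 121 and 16 in mKO, and with quantile normalization 42 and 39 in mKO. Whether the stage difference itself differed between genotypes was tested as mKO minus WT. A constant scale difference between tables cancels there for genes well above the pseudocount of 1, but not for low genes. Such a difference between genotypes was called for 114 genes (1.29%) in the higher direction and 34 (0.384%) in the lower at a limma adjusted p under 0.05. With no scaling the split was 1370 and 15. Without WT 3 the counts were 186 (2.11%) and 113 (1.28%), and without WT 4 they came to 774 in all. With WT 4 alone standing for WT at E4.25 there were 9, and without mKO 4 there were 40. Among E4.25 libraries named 47 to 52 (WT 1 and 2, mKO 1 and 2) there were 1036, and among those named 53 to 56 (WT 3 and 4, mKO 3 and 4) there were 23. With the first E3.5 table in place of the second, 0 genes passed in limma, with 469 at an unadjusted p under 0.05. Leaving out 1 WT or mKO library of E3.5 at a time gave 45 to 121, so the count also moved with choices other than the WT libraries of E4.25.

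The microRNAs of the miR-290 cluster on chromosome 7, which is abundant in embryonic stem cells, were among the genes whose stage change was higher in mKO. Their RefSeq mature 3p forms (GRCm38.p6) are shown with the seed, bases 2 to 8, in capitals, since miR-294 and miR-295 share it.
miR-293-3p, chr7:3220390-3220411, plus strand: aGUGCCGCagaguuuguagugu
miR-294-3p, chr7:3220691-3220712, plus strand: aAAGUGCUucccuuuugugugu
miR-295-3p, chr7:3220815-3220837, plus strand: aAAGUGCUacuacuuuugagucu
The hairpins are 80, 84 and 69 bases long, and FPKM from poly(A)-primed libraries does not tell which arm, or whether the mature form or its longer precursor, was read. Mir294 was 12.0 to 45.2 scaled FPKM at E3.5. At E4.25 it was 0, 4.82, 0 and 1.62 in WT, 139 in mHet and 86.5, 47.7, 56.2 and 47.8 in mKO. The WT libraries lay below all E3.5 libraries, and the mHet and mKO libraries above them all. The stage difference was -3.56 ± 0.52 in WT and 1.86 ± 0.28 in mKO, and these differed by 5.41 ± 0.61 (limma adjusted p = 0.0002).

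Mir293 was 0, 0, 0 and 0.908 in WT and 32.8, 26.4, 8.58 and 28.1 in mKO at E4.25, against 0 to 18.3 at E3.5. Its mKO minus WT difference was 5.23 ± 0.82 (limma adjusted p = 0.003). Mir295 was 10.3, 7.91, 0 and 6.62 in WT and 89.8, 37.4, 94.7 and 80.9 in mKO, and the difference was 4.00 ± 0.83 (adjusted p = 0.023). All 4 mKO libraries were above all 4 WT libraries for each of the 3, which were named for their called difference between genotypes. Leaving out 1 library at a time gave adjusted p of 4.0e-06 to 0.001 for Mir294 and of 0.00703 to 0.0523 for Mir295.

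The stage change of Slc15a2, Alpl, Adh1 and Slc22a5 was also higher in mKO. Slc15a2, a proton-coupled peptide transporter, was 0.525 to 2.2 in mKO and 1.45 to 14.7 in WT at E3.5. At E4.25 it was 66.0, 16.8, 32.4 and 27.6 in mKO, 31.3 in mHet and 1.11, 0.802, 0.233 and 11.5 in WT. The mKO libraries were mostly the lower at E3.5 and lay above all WT libraries at E4.25, and the difference was 5.47 ± 0.82 (limma adjusted p = 0.0024). Alpl, the tissue-nonspecific alkaline phosphatase, was 4.58 to 12.2 in mKO and 12.0 to 23.5 in WT at E3.5, and 102, 102, 41.1 and 58.7 in mKO against 6.64, 5.32, 0.613 and 26.2 in WT at E4.25. Its difference was 4.58 ± 0.77 (adjusted p = 0.0062). Adh1, an alcohol dehydrogenase, had a difference of 6.29 ± 1.43 (adjusted p = 0.033), but its adjusted p rose above 0.05 in 12 of 24 fits that each left out 1 library. Slc22a5, a carnitine transporter, gave 4.28 ± 0.83.

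A GATA match is present in the promoters of the first and the third of these, shown with the match in capitals.
Slc15a2, chr16:36785040-36785069, minus strand: tttttctcaaacAGATAAccctaatcgatt
Adh1, chr3:138277423-138277452, plus strand: atctcgacagggAGATAAatgagaaaggaa
The matches lie at -95 for Slc15a2 and -150 for Adh1. Such a match was present in 13 of 83 promoters of the genes named by the rule (15.7%), against the 9.37% of all genes tested.

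Pramel6 and Pramel7, related to Pramel5 and active in the naive inner cell mass, also differed. Pramel6 was 46.5 to 104 at E3.5 and, at E4.25, 3.42, 2.13, 0.163 and 46.2 in WT, 190 in mHet and 167, 52.9, 224 and 96.2 in mKO. WT 4 stood with the mHet and mKO libraries more than with the other WT libraries. The mKO minus WT difference was 4.33 ± 0.98 (limma adjusted p = 0.033) for Pramel6 and 4.36 ± 0.88 (adjusted p = 0.022) for Pramel7. For Pramel6 the adjusted p rose above 0.05 in 14 of the 24 fits that left out 1 library.

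In the other direction, the stage change was lower in mKO than in WT. Mapk3 (ERK1), a kinase of the FGF pathway, was at most 1.08 at E3.5, and 31.3, 36.6, 31.4 and 2.90 in WT, 0.501 in mHet and 0.620, 1.34, 1.03 and 0.937 in mKO at E4.25. WT 1 to 3 stood far above the other libraries, and WT 4 lay between. Its difference was -3.60 ± 0.67 (limma adjusted p = 0.011). Sqle, an enzyme of cholesterol synthesis, was 26.6, 23.6, 33.8 and 6.74 in WT and 1.18, 1.51, 7.64 and 2.50 in mKO, with -3.70 ± 0.65 (adjusted p = 0.0071). Of the 15 measured genes of sterol synthesis, the median stage difference was 0.70 in WT, 0.85 in WT without WT 3 and -0.40 in mKO.

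Slc2a1, the glucose transporter GLUT1, was 107, 43.2, 46.7 and 12.7 in WT and 9.54, 15.7, 7.04 and 6.23 in mKO at E4.25, against 2.62 to 9.01 at E3.5. Its difference was -2.38 ± 0.58 (limma adjusted p = 0.044). The keratin Krt19 was 11.4, 11.3, 34.4 and 1.38 in WT and at most 1.93 in mKO (-3.08 ± 0.69, adjusted p = 0.033), and the haem oxygenase Hmox1 was 29.5, 31.2, 4.13 and 4.72 in WT and at most 2.33 in mKO (-3.01 ± 0.76, adjusted p = 0.046). In all of these the E4.25 WT libraries spanned a wide range, and WT 4 was the lowest or next to the lowest. Leaving out 1 library took the adjusted p above 0.05 in 15 of 24 fits for Slc2a1, 13 for Krt19 and 16 for Hmox1. Gabarapl1, an autophagy protein (-3.23 ± 0.82), Cidea, of lipid droplets (-2.64 ± 0.67), and Wbp5 (-3.11 ± 0.77) differed in the same direction, with adjusted p of 0.044 to 0.049, which rose above 0.05 in 15, 14 and 14 of the 24 fits that left out 1 library.

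**Figure D5:**
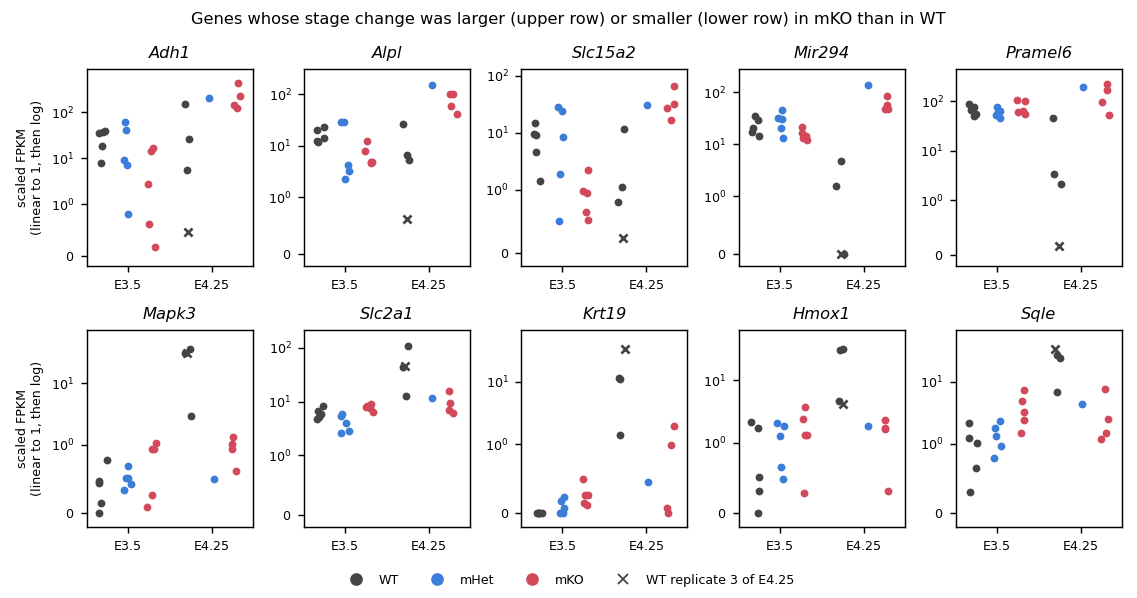
Scaled FPKM per library (y axis, linear to 1 and logarithmic above) for 5 genes whose stage change was higher in mKO than in WT and 5 where it was lower; points are libraries coloured by genotype, and the cross is E4.25 WT 3. For Mir294 the 4 WT libraries of E4.25 lie at or below 4.82 and the 4 mKO libraries at or above 47.7, while for Mapk3 WT 4 stands at 2.90.

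Ezhip itself, listed under its older symbol AU022751, was too low to test. It was 0 in most libraries of every genotype, WT included, with a highest value of 1.00 in an E3.5 WT library and 0.0438 in mKO 3 at E4.25, so these values do not check the genotype labels. Among 9 measured genes of PRC2, only Aebp2, an accessory subunit, fell by the 2-fold rule, by 1.15 ± 0.23, with and without WT 3, where 8.55% of all genes fell. The first E3.5 table was lower than the second for Aebp2 by 1.01, and the E4.25 libraries differed from the first by -0.23 (limma adjusted p = 0.61). BC051665, a cathepsin-like gene named after its values were seen, had the highest stage difference among those named here, at 3.44 ± 0.69, and was at 0 in WT 3 and 0.350 in mKO 4.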

How the data were processed

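The authors deposited FPKM per gene for each library, in a separate table for each E3.5 set and for E4.25. Per the submitters' processing notes, the tools included HTSeq 0.6.0, HISAT2 2.2.1 and Trim Galore 0.4.2, and 2 builds are listed, hg19 and mm9, with no statement of their use. How FPKM were computed, and with which annotation, was not given in the sources used here. Gene names turned into dates were dropped (27 in each E3.5 table, 0 at E4.25), Rn45s was removed, and 19336 names shared by the tables were scaled by the median of ratios (factors 0.414 to 2.09). limma 3.58.1 in R 4.3.3 was fitted with a trend on log2(scaled FPKM + 1), with genotype as a term. Promoter and microRNA sequences came from RefSeq (GRCm38.p6). On simulated data for all genotypes over 8849 genes, 64% of 50 genes changed by a log2 of 2 and 100% of 50 changed by 3 were called. The changed genes were drawn from those with a mean log2(scaled FPKM + 1) above 2 at E3.5. Recovery of lower genes was not measured.

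Members, lists and tests were chosen with earlier results of these data known. Named genes were up to 15 each way that were called, had the same sign in WT and mKO, did not overlap between stages and averaged at least 5 scaled FPKM, without clone-like names. To these were added, of each list, up to 6 called members and the 3 highest that were not called. Also added were 12 fixed genes (lineage genes and Ezhip), and up to 10 genes each way whose stage change differed by genotype. List members named beside a 2-fold count, and the genes the text marks so, fall outside this rule and were named after their values were seen. Replicate numbers were tested as a block: deviations of same-numbered libraries correlated at -0.0828 and 0.12 in WT and 0.235 and -0.111 in mKO, so the numbers were not taken to pair libraries. Alternatives covered scaling, pseudocount, filter, rule, terms for sex, Rn45s and genes detected, tables, library names and each library left out. A few items are not reported here.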

Additional observations from a re-analysis of the deposited data

Results flagged for a closer look

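Some libraries stood apart within their group by Dixon's criterion, which chance meets in about 1 group in 20. At E4.25, Pemt was 21.9 scaled FPKM in mKO 4, against 2.00 to 5.05 in the other mKO libraries. Nanog was 7.79 in WT 4 (0 to 0.111 in the other WT libraries), and 25.7 in WT 6 at E3.5 (20.7 to 21.8 in the others). Cdkn1a was 30.8 in WT 3 (0.023 to 0.689) and Fos 179 in WT 3 (3.57 to 10.8), the library that stood apart from the others at E4.25. Pramel6 was 46.2 in WT 4 (0.163 to 3.42) and Mapk3 2.90 in WT 4 (31.3 to 36.6). Basp1 was 1.65 in WT 7 at E3.5 (3.75 to 4.37).

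The stage change differed between mKO and WT for 148 genes in limma's test of the difference. The differences on the log2 scale were 6.29 for Adh1, 5.47 for Slc15a2, 4.58 for Alpl, 5.23 for Mir293, 5.41 for Mir294, 4.00 for Mir295, 4.33 for Pramel6, 4.36 for Pramel7 and 4.28 for Slc22a5. They were -3.70 for Sqle, -3.60 for Mapk3, -2.38 for Slc2a1, -3.08 for Krt19, -3.01 for Hmox1, -3.23 for Gabarapl1, -2.64 for Cidea and -3.11 for Wbp5.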

How the results depend on the processing

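Of 32 genes in the text called as a large stage change, 0 changed sign under the alternatives, while Gapdh, Xist and Zfp42, called only by the 2-fold rule, did. Of 3789 alternative values of genes in the text 3262 kept direction and side of the threshold, 309 lost the call, 200 gained one and 18 changed sign. Depth is unknown for FPKM, so low values carry no counting interval, and the cause of the shifts below was not tested except where fewer libraries or genes were used. The alternatives without libraries over 50% Rn45s, with WT 4 alone, and without WT 3 in the ratios or together with the first E3.5 table or a log2 of 1 were chosen after seeing the data.

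For all genotypes the 136 large changes became 497 with a pseudocount of 0.1, 658 scaled to the sum (519 higher, 139 lower), 85 with quantile normalization (28 higher, 57 lower), 1042 at a log2 of 1 (1006 without WT 3), 89 against a log2 of 1 by treat, 88 with Rn45s as a term and 219 against the first E3.5 table without WT 3. For WT the 305 became 661 with the pseudocount of 0.1, 169 with no filter, 639 scaled to the sum, 1000 at a log2 of 1 (1344 without WT 3), 53 by treat, 466 with a sex term, 111 with genes detected as a term, 545 in library names 47 to 52, 574 without libraries over 50% Rn45s, 131 with WT 4 alone, and 0 against the first E3.5 table (947 at an unadjusted p under 0.05 in limma; 6 without WT 3). For mKO the 89 became 332 with the pseudocount of 0.1, 54 with no filter, 692 scaled to the sum, 137 with no scaling (121 higher, 16 lower), 701 at a log2 of 1, 11 by treat, 344 with genes detected, 38 in library names 53 to 56 and 162 against the first E3.5 table. For mKO minus WT the 148 became 43 with no filter, 83 scaled to the sum, 1385 with no scaling (1370 higher, 15 lower), 277 with cell means over 3 genotypes, 633 with genes detected, 606 with Rn45s, 1036 in names 47 to 52, 23 in names 53 to 56, 1515 without libraries over 50% Rn45s, 9 with WT 4 alone, and 0 against the first E3.5 table with and without WT 3 (469 and 727 at an unadjusted p under 0.05 in limma). The 44 genes called between E3.5 tables became 109 scaled to the sum.

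Replicate numbers shared only a number. With the replicate block, all genotypes gave 12 higher and 122 lower, mKO minus WT 79 and 23, and WT and mKO alone 0 each (918 and 854 at an unadjusted p under 0.05 in limma, against 2631 and 2614 without it). Leaving out each library gave 117 to 175 calls for all genotypes, 218 to 453 for WT, 70 to 141 for mKO (most without E3.5 mKO 4) and 40 to 774 for mKO minus WT, and the Rn45s share of mKO, -5.05 percentage points, ran from -12.9 to 3.89.

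The values that changed sign were these. Against the first E3.5 table, with and without WT 3, Gapdh was 0.99 and 0.93, Xist 1.75 and 1.51, Gata6 0.34 and 0.55, Sox2 0.76 and 0.67 and Cdx2 -0.286 and -0.0492. Without WT 3 against that table Gata3 was 0.14 and Zfp42 0.0926. Scaled to the sum, Gata6 was 0.24, Sox2 0.46 and Gata3 0.0555, quantile normalization gave 0.12 for Krt8, names 53 to 56 gave 0.18 for Sox2, and WT 4 alone gave 0.23 for Gata3.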
